A study of Mus musculus with 4 samples.

Results

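The genes described here are the axon guidance ligands and receptors: semaphorins, plexins, neuropilins, Slits, Robo receptors, netrins, Unc5 receptors, ephrins and Eph receptors. They were chosen by a rule on gene symbols, which uses no measured value but was set with earlier results of these data known, and number 70 of the 32285 genes in the deposited tables. By group they are 7 secreted and 13 membrane-bound semaphorins, 9 plexins, 2 plexin domain containing genes, 2 neuropilins, 3 Slits, 4 Robo receptors, 4 netrins, 4 Unc5 receptors, 5 ephrin-A and 3 ephrin-B ligands, 9 EphA and 5 EphB receptors. All 70 had at least 1 unique molecular identifier (UMI, a counted transcript molecule) in fibroblast-like cells, and 61 had at least 1 in every library.

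The libraries were 3′ single-cell RNA libraries of stromal cells negative for CD45 (leukocyte marker) and CD31 (endothelial marker) from skin-draining lymph nodes of female C57BL/6 mice aged 12 weeks. Batch 1 held 1 control library (Ccl19-Cre x R26R-EYFP) and 1 Notch2 cKO library (the same alleles with Notch2 fl/fl), each from 6 pooled mice that were not littermates. Batch 2 held 1 control library and 1 Notch2 cKO library (Ccl19-Cre x Notch2 fl/fl), each from 3 pooled littermates. The genotype label of the batch 2 control reads Notch2 fl/fl, while its title names Ccl19-Cre, so the labels leave its Cre status unclear. Ccl19-Cre is active in cells that use the Ccl19 promoter, mainly reticular fibroblasts, and the EYFP reporter was labelled in batch 1 alone. With 2 libraries a group, p-values rest on a spread taken in part or wholly from all genes together, after the batch or library term. They describe these pools and are no measure of 1 gene's own spread between them.

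Guidance ligands were named for steering growing axons, and the same pairs act between other cells. Slits bind Robo receptors and usually repel. Netrins bind Dcc, Neo1 and Unc5 receptors, the last mediating repulsion. Secreted semaphorins of class 3 act through neuropilins that partner with plexins, while most membrane semaphorins bind plexins directly. Ephrins stay on the cell surface and signal to Eph receptors on a touching cell, and the ligand-bearing cell can respond too. In lymph nodes, fibroblastic reticular cells build the scaffold on which lymphocytes migrate, marginal reticular cells line the subcapsular border, and adventitial cells surround vessels.

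Cells were sorted into classes by UMIs of marker genes after every cell was reduced to 1000 UMIs, and no guidance gene was used for this. T-zone reticular-like cells were set by Ccl21a, Ccl19 and Il7, marginal reticular-like cells by Cxcl13, Tnfsf11 and Hamp2, and adventitial-like cells by Pi16, Dpp4 and Anxa3. Cd34 fibroblast-like cells were set by Mgp, Fbln1, Fmo2 and Cd34, medullary-type-like cells by Car3, Inmt, Cyp2f2 and Stc1, and Fabp4 fibroblast-like cells by Fabp4, Col15a1 and Cd36. Sorting on these genes largely sets their order between classes, so that order is no check of the classes. In each library 18 of these 20 genes were higher in their own class than in any other of the 6. The exceptions were Cd34, which reached 1743 CPM in another class against at most 620.9 in the class that carries its name, and Car3. CPM here is a gene's UMIs over the UMIs of all genes, scaled to the usual fixed total, both summed over the cells of a class in 1 library. T-zone reticular-like cells numbered 3893 to 5425 a library and adventitial-like cells 70 to 250. The Fabp4 class held 52 to 153 cells a library. Marginal reticular-like cells numbered 150 and 117 in batch 1 against 1043 and 1046 in batch 2. Summed fibroblast-like UMIs were 20581522 and 24694083 in batch 1 and 107781495 and 99473337 in batch 2. Libraries shared 21 to 57 cell barcodes, at most 0.55% of the smaller one.

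The batches were counted by different Cell Ranger versions, 5.0.1 and 7.1.0 per the file headers, and several members stood at different levels in them. In T-zone reticular-like cells, 22 of the 56 members tested were higher in both batch 2 libraries than in both batch 1 libraries, and 8 were lower. Among the 28 members with the longest genomic spans (69.0 to 737.8 kb) these counts were 15 and 0. Among the other 28 (4.6 to 63.2 kb) they were 7 and 8. The same counts were not made over all genes, so whether this shift is particular to the members was not tested. Whether the versions, the depth or the mice account for this shift cannot be told apart. Levels are therefore read within a batch, and every fit holds the library or the batch as a term. The batch 1 pools are called control 1 and Notch2 cKO 1, and the batch 2 pools likewise with a 2. Where 4 levels in CPM, or 4 shares of cells, stand in a row, they give batch 1 (control, then Notch2 cKO) and then batch 2 (control, then Notch2 cKO).

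Robo1 and Robo2, the receptors of Slits, were higher in T-zone and marginal reticular-like cells, and Slit2 and Slit3, the ligands, were lower there than in the mean of the other classes. Robo2 was at 130, 125, 484 and 634 CPM in T-zone reticular-like cells. In Cd34 fibroblast-like cells it was at 31.3, 41.8, 40.2 and 73.0 CPM. Within each library the T-zone value was the higher one, but the difference of Cd34 cells from the mean of the other classes was -1.25 in all libraries and 0.46 in batch 1 alone. The log2 difference of T-zone cells from the mean of the other 5 classes was 2.53 (SE 0.15, n = 4 libraries, adjusted p = 2.71e-12, edgeR quasi-likelihood test with the library as a block). Robo1 differed by 1.90 (SE 0.14). In marginal reticular-like cells the differences were 1.25 for Robo1 and 1.59 for Robo2. In adventitial-like cells Robo2 was lower (-1.87), while Robo1 was not called (0.21, SE 0.20).

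Slit3 gave the reverse picture. It stood at 14.3, 7.47, 74.0 and 34.1 CPM in T-zone reticular-like cells, and at 201, 178, 657 and 735 CPM in Cd34 fibroblast-like cells. The T-zone value was below the Cd34 value in all 4 libraries. T-zone cells were lower by a log2 difference of -3.27 (SE 0.20, adjusted p = 5.51e-12, edgeR). Slit3 was higher in adventitial-like, Cd34, medullary-type-like and Fabp4 cells, by 1.15, 1.21, 1.06 and 0.74 log2. Slit2 had means of 40.7 CPM (SD 32.4) in Cd34 fibroblast-like and 28.7 (SD 22.2) in Fabp4 fibroblast-like cells, and at most 2.48 in the other 4. In marginal cells its difference was -1.16, and 0.67 without control 2. Its log2 difference in Cd34 fibroblast-like cells was 3.78 (SE 0.27, adjusted p = 2.76e-10, edgeR). Slit1, Robo3 and Robo4 had means of at most 0.0909 CPM in the 6 classes, so they were not tested.

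Ntn1, the founding secreted netrin, and Ntn4, a netrin of basement membranes, were highest in adventitial-like cells. Ntn1 was at 144, 108, 152 and 72.1 CPM there, and at 1.03, 2.59, 1.13 and 1.65 in T-zone reticular-like cells. The lowest adventitial value exceeded every library of every other class, of which the highest was 53.6 CPM in Cd34 fibroblast-like cells. The adventitial log2 difference was 4.53 for Ntn1 (SE 0.23, adjusted p = 6.21e-14, edgeR) and 3.68 for Ntn4 (SE 0.27). Both were also higher in Cd34 fibroblast-like cells, by 2.59 and 2.18. Both were lower in T-zone and marginal reticular-like cells.

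Unc5c, a receptor that mediates repulsion from netrins, was at 114, 130, 537 and 752 CPM in T-zone reticular-like cells and at 35.9, 14.0, 57.5 and 69.97 in adventitial-like cells. Its log2 difference was 1.75 in T-zone, 1.70 in marginal and 0.87 in medullary-type-like cells, and -2.29 in adventitial-like cells. Unc5b, also a netrin receptor, was higher in Cd34 fibroblast-like (1.398), T-zone (1.00) and marginal cells (0.86) and lower in adventitial-like cells (-2.46). Unc5b was thus higher in a class where Ntn1 and Ntn4 were higher too. In Cd34 fibroblast-like cells Unc5c was lower (-1.55). In batch 1 alone the Unc5c difference in Cd34 fibroblast-like cells was 1.07 (adjusted p = 0.788, edgeR), and in adventitial-like cells it was 0.14, so these 2 rest on batch 2. Unc5a and Unc5d had means of at most 4.13 CPM in the 6 classes.

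**Figure D1:**
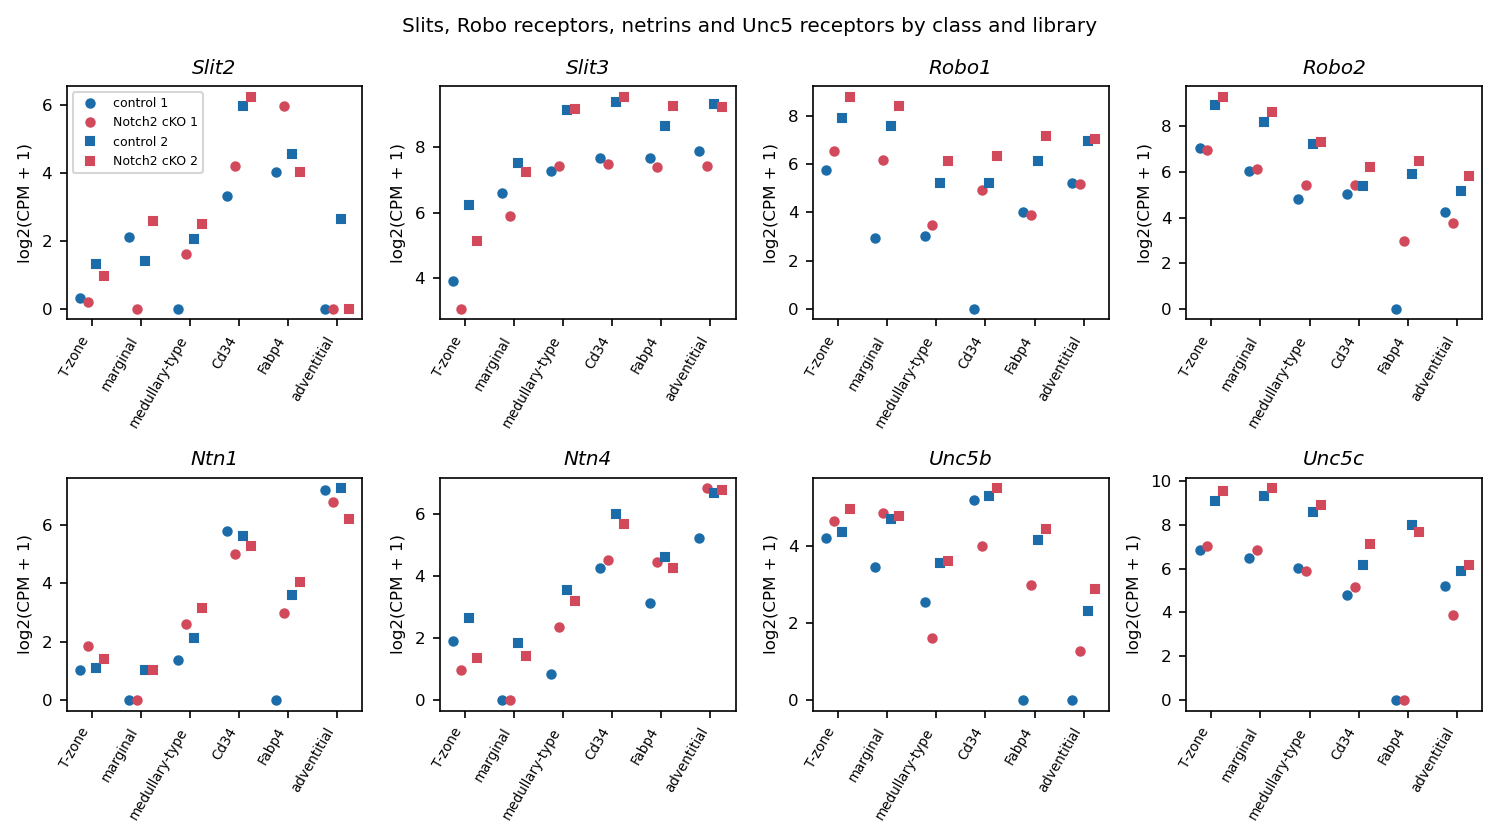
Levels of 8 genes as log2(CPM + 1) on the vertical axes, in 6 fibroblast-like classes on the horizontal axes. Each point is 1 library (colour for genotype, shape for batch), and Robo2 is highest in T-zone cells within each library, and Ntn1 is highest in adventitial-like cells.

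Of the 7 secreted semaphorins 4 were tested, and in adventitial-like cells Sema3c, Sema3d and Sema3b (0.59) were higher and Sema3f was lower. Sema3c was at 1018, 1140, 1041 and 846 CPM there. In T-zone reticular-like cells it was at 1.90, 2.37, 3.52 and 7.06. All 4 adventitial values lay above every library of the other 5 classes. The log2 difference was 6.81 (SE 0.27, adjusted p = 4.07e-16, edgeR). Sema3d followed the same order, with a mean of 119.8 CPM (SD 13.6) in adventitial-like cells, 37.2 (SD 6.76) in Cd34 fibroblast-like cells and at most 3.00 in the other 4. Its adventitial difference was 6.09 (SE 0.21). Sema3e had a mean of 25.2 CPM in adventitial-like cells and at most 0.639 in the other 5, and it did not pass the filter on low counts.

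Sema3b and Sema3f, class 3 ligands too, were distributed otherwise. Sema3f was lower in adventitial-like cells (log2 difference -2.80, SE 0.58) and higher in T-zone cells by 1.67 (SE 0.19). Sema3b had means of 69.5 to 97.4 CPM in T-zone, marginal, medullary-type-like and adventitial-like cells, and of 25.5 and 21.3 in Cd34 and Fabp4 fibroblast-like cells, where it was lower by the test. Sema3a had a mean of 20.7 CPM in the Fabp4 class and at most 2.54 elsewhere, and Sema3g of at most 1.93. Neither was tested.

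The neuropilins, which bind class 3 semaphorins, also differed between classes. Nrp2 was at 187, 194, 205 and 259 CPM in marginal and at 172, 224, 226 and 255 in medullary-type-like cells. In T-zone cells it was at 51.4, 75.0, 80.1 and 94.6. The lowest marginal and medullary-type values lay above the highest T-zone value. The log2 differences were 1.47 in marginal (SE 0.14) and 1.63 in medullary-type-like cells (SE 0.13). Nrp1 was higher in Cd34 fibroblast-like (0.86, SE 0.15) and T-zone cells (0.77, SE 0.14) and lower in adventitial-like (-1.08) and Fabp4 cells (-0.61).

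Plexins, the signalling receptors for semaphorins, were mostly lower in adventitial-like cells. Of the 7 plexins tested, 6 were lower there, by log2 differences from -0.95 (Plxnb2) to -2.71 (Plxna4), and 1 was higher. Of all genes tested, 19.8% were lower and 16.5% higher in these cells. The exception, Plxna1, was at 150, 194, 89.6 and 84.8 CPM in adventitial-like cells. These were above all libraries of the other classes (log2 difference 1.56, SE 0.10, adjusted p = 1.09e-11, edgeR). Plxnd1, which can bind Sema3e without a neuropilin, was at 29.9, 14.0, 15.03 and 14.8 CPM there, below every library of every other class. Plxnb1 and Plxnb2, receptors of class 4 semaphorins, were higher in T-zone cells by 1.72 (SE 0.16) and 1.06 (SE 0.11). Plxna2 was higher in T-zone, marginal and medullary-type-like cells by 0.97, 1.10 and 1.13. Plxdc2, a plexin domain containing membrane protein, was lower in T-zone cells (-1.08, SE 0.21, adjusted p = 0.000222, edgeR), with a spread of 81.9 to 625 CPM over the 4 libraries.

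Of the 13 membrane semaphorins 8 were tested. In adventitial-like cells 0 were higher and 6 lower (all genes 16.5% and 19.8%), with a median log2 difference of -0.98. In marginal cells 4 were higher and 1 lower (all genes 17.5% and 13.3%), and in Fabp4 cells 3 were higher and 1 lower (all genes 7.04% and 6.5%). Sema7a, a lipid-anchored semaphorin, was at 3.29, 48.4, 60.04 and 37.8 CPM in marginal reticular-like cells, and at 3.16 or less in T-zone cells. Control 1, with 150 marginal cells, was the low library, and its value is 1 UMI, under the 9.87 CPM that 3 UMIs correspond to there. The marginal log2 difference was 3.53 (SE 0.22, adjusted p = 9.5e-12, edgeR). Sema4c was higher in medullary-type-like cells (1.09, SE 0.10) and Sema6d in Fabp4 cells (1.06, SE 0.22). Sema5b was higher in Cd34 (2.70, SE 0.30) and Fabp4 cells (2.34, SE 0.50), yet it was at 0 UMIs in Fabp4 cells of control 1 and Notch2 cKO 1. There 3 UMIs, the limit that a count of 0 allows, correspond to 23.1 and 20.6 CPM, so the 25.7 and 30.8 CPM of batch 2 lie close above it.

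**Figure D2:**
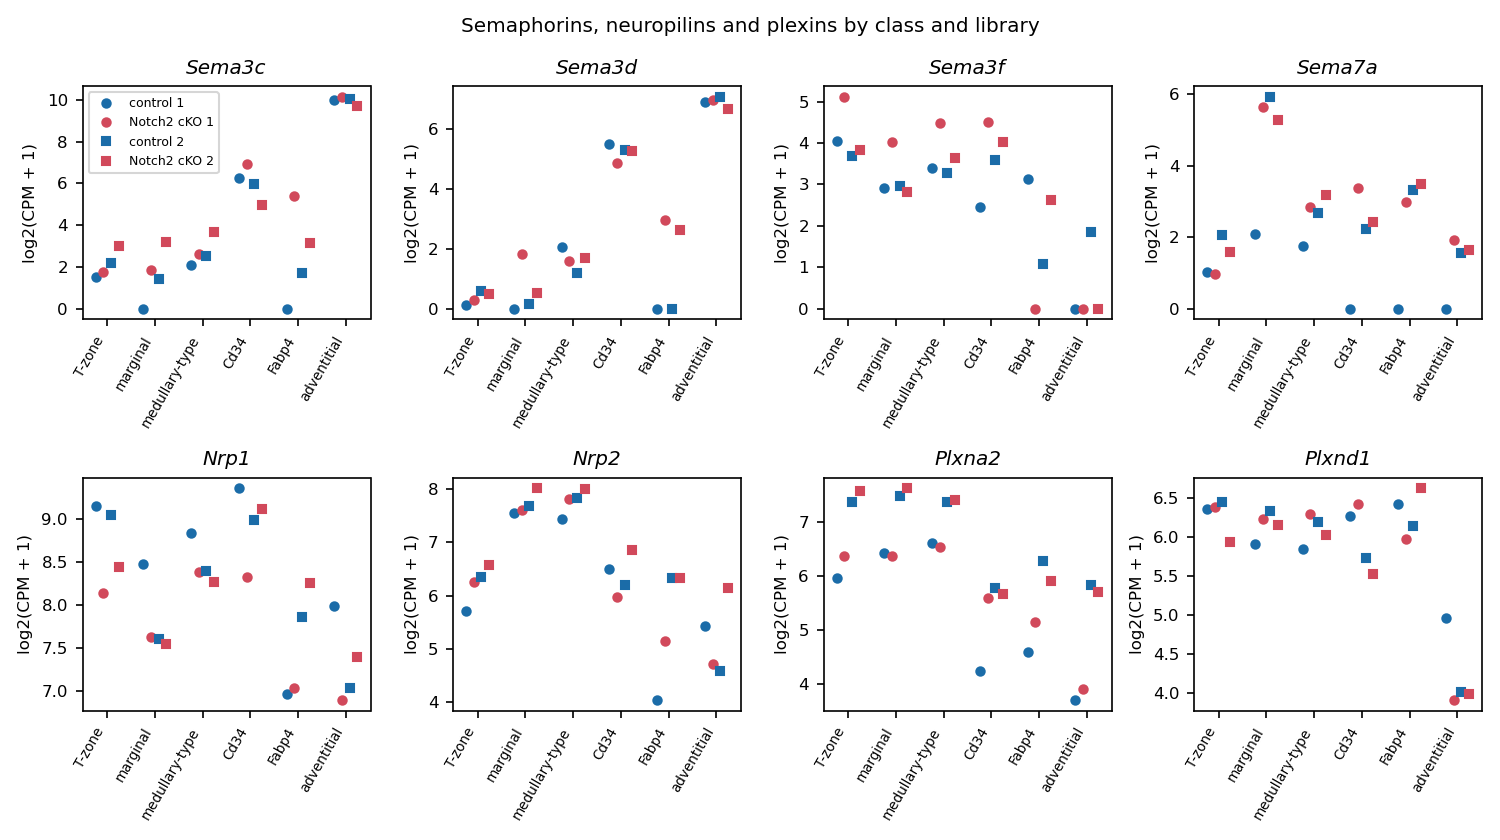
Levels of 4 semaphorins, 2 neuropilins and 2 plexins as log2(CPM + 1) (vertical axes) in 6 fibroblast-like classes, with 1 point a library (colour for genotype, shape for batch). Sema3c and Sema3d are highest in adventitial-like cells in all 4 libraries, and Sema7a is higher in marginal cells than in the other classes in 3 libraries, its control 1 value being 1 UMI.

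Ephrins and Eph receptors showed 3 class patterns. Efna5, an ephrin-A ligand, was at 108, 75.5, 333 and 250 CPM in adventitial-like cells, above every library of the other classes (log2 difference 3.55, SE 0.20). Efnb2, a ligand of EphB receptors, was at 19.7, 25.5, 58.0 and 47.7 CPM in marginal reticular-like cells and at 5.25 or less in T-zone cells. Its marginal difference was 2.52 (SE 0.19, adjusted p = 2.76e-10, edgeR). Of the 7 Eph receptors tested, 5 were higher in Cd34 fibroblast-like cells: Epha3 by 2.73 (SE 0.18), Ephb2 by 2.03 (SE 0.16), Epha7 by 1.41, Epha4 by 1.24 (SE 0.12) and Ephb3 by 0.77. Of all genes tested, 12.7% were higher and 9.78% lower there. Ephb4 and Ephb6 were not called there, and were higher in T-zone cells, by 0.39 and 0.99. Ephb2 was at 58.1, 62.0, 64.9 and 103 CPM in Cd34 fibroblast-like cells, above every library of the other classes. All 4 tested EphB receptors (Ephb2, Ephb3, Ephb4, Ephb6) and 2 of 3 tested EphA receptors (Epha4, Epha7) were lower in adventitial-like cells. Of all genes tested, 19.8% were lower and 16.5% higher in that class. Efnb1, another EphB ligand, had means from 44.6 to 86.1 CPM in the 6 classes.

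Counted over all groups, 41 members were tested between the 6 classes. In T-zone cells 18 were higher and 15 lower, against 21.5% and 17.4% (39% in either direction) of all 10693 genes tested. In marginal cells 20 were higher and 10 lower (all genes 17.5% and 13.3%). In adventitial-like cells 10 were higher and 26 lower (all genes 16.5% and 19.8%, 36.2% in either direction). In Cd34 fibroblast-like cells 18 were higher and 10 lower (all genes 12.7% and 9.78%). In medullary-type-like cells 18 were higher and 4 lower (all genes 15.7% and 9.98%), and in Fabp4 cells 5 were higher and 9 lower (all genes 7.04% and 6.5%). The median log2 difference of the members was -1.03 in adventitial-like cells, where that of all genes tested was -0.06. A gene could pass the filter on low counts through a single class where it was high, so these counts describe the tested members and support nothing about the 29 others. Of those, 10 had means under 1 CPM in all 6 classes.

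**Figure D3:**
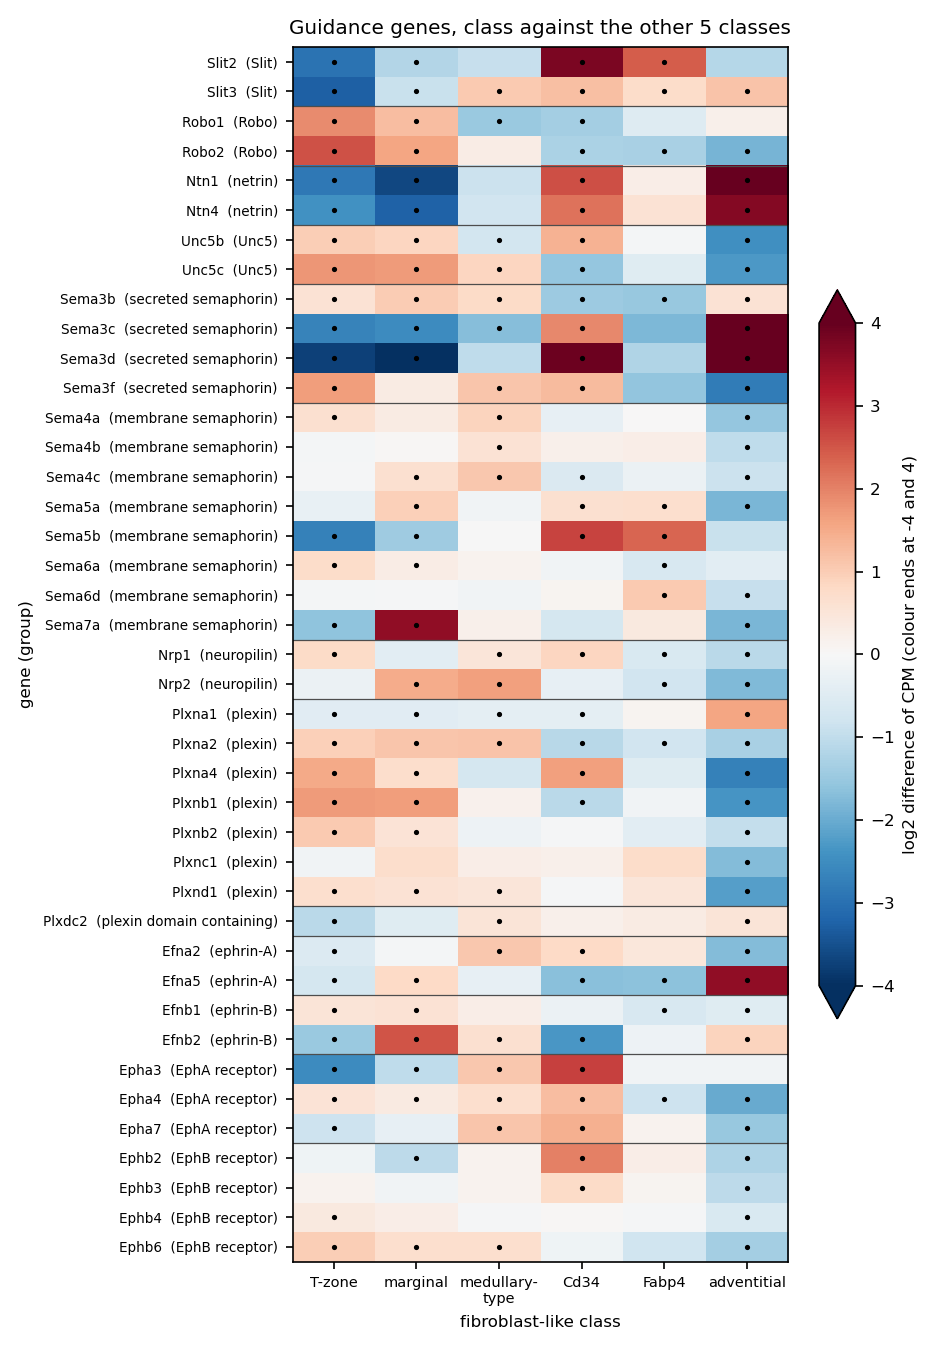
Log2 difference of each class from the mean of the other 5, for the 41 members tested (rows, ordered by group) in 6 classes (columns), with a mark where the adjusted p is under 0.05. The adventitial-like column holds 26 lower and 10 higher members.

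Genes that act with these ligands and receptors were given by a list of 50 co-receptors, other ligands and intracellular effectors. Of the 38 tested, 17 were higher and 11 lower in T-zone cells (39% of all genes called in either direction), 19 and 11 in marginal cells (30.8%), and 13 and 17 in adventitial-like cells (36.2%). The Cd34, medullary-type-like and Fabp4 classes had 7 and 9 (22.5%), 5 and 9 (25.7%), and 7 and 5 (13.5%). Flrt2, an Unc5 ligand, was higher in adventitial-like cells (3.98, SE 0.18), with a mean of 306 CPM (SD 89.6), and lower in marginal cells (-3.92). Fyn, a kinase of netrin and semaphorin signalling, was higher in adventitial-like cells (3.74, SE 0.14) and lower in T-zone cells (-3.67). Draxin, a secreted netrin-binding protein, was higher in marginal cells (3.41, SE 0.19), and Chl1, a neuropilin partner, in T-zone cells (2.17, SE 0.15).

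Cell classes with under 50 cells in at least 1 library are given as values for control 2 and Notch2 cKO 2, with no test. Follicular dendritic-like cells (46 and 26 cells) had Unc5c at 2066 and 1294 CPM, Robo1 at 568 and 505, Sema7a at 417 and 330 and Efnb2 at 172 and 133. Pericyte-like cells (595 and 395 cells) had Sema5a at 594 and 772 CPM and Sema6d at 168 and 150. Smooth muscle-like cells (187 and 112 cells) had Ntn4 at 246 and 223 CPM and Slit3 at 393 and 465. Schwann-like cells (76 and 59 cells) had Nrp2 at 375 and 384 CPM, Sema3b at 289 and 440, Sema3e at 223 and 164 and Plxnb3 at 78.1 and 81.8. Plxnb3 had means of at most 0.641 CPM in the 6 fibroblast-like classes.

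The second question was whether deleting Notch2 in Ccl19-Cre cells changed these genes. Notch2 was at 41.3, 14.6, 57.3 and 37.5 CPM in T-zone reticular-like cells. It was lower in the Notch2 cKO library of each batch (log2 difference -1.09, SE 0.22, adjusted p = 0.0177, edgeR with batch as a term). The labels do not name the deleted exons, and 3′ counts need not lie in them. Of 6 Notch target genes, Hes1, Hey1, Hey2, Heyl and Notch3 fell in these cells and Nrarp did not pass. In adventitial-like cells Notch2 differed by -0.09 (SE 0.33).

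In T-zone reticular-like cells 4 members rose and 2 fell in Notch2 cKO. The receptors Ephb2, Plxna4, Plxdc2 and Ephb3 rose, and the secreted ligands Slit3 and Ntn4 fell. Of all 15889 genes tested, 2.48% rose and 2.45% fell, and the members' 6 of 56 tested (10.7%) stands against 4.93%. The median absolute log2 difference was 0.49 over the members and 0.23 over all genes. Levels were not matched, and some members were low, such as Unc5a (0.074 to 1.66 CPM) and Sema5b (0 to 1.72 CPM). Of the 56 log2 differences 28 were above 0. The direction was shared by the batches in 40 of 56 members, and this was not counted over all genes. In all fibroblast-like, marginal and adventitial-like cells it was shared in 37 of 61, 25 of 44 and 9 of 24. In Cd34, medullary-type-like and Fabp4 cells it was shared in 24 of 44, 25 of 43 and 5 of 18.

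Ephb2 (chromosome 4, 136647539 to 136835988, minus strand; GRCm38 for all positions) is a receptor of ephrin-B ligands. It was at 9.11, 25.8, 11.8 and 28.9 CPM. Both Notch2 cKO libraries lay above both controls, and the batches were alike (log2 difference 1.33, SE 0.21, adjusted p = 0.00433, edgeR). Ephb3 (chromosome 16, 21204755 to 21223305, plus strand), a receptor of the same group, was at 15.04, 33.3, 13.0 and 23.7 CPM. Its groups did not overlap either (0.94, SE 0.21, adjusted p = 0.0279), but it was not past the test under DESeq2 (0.92, adjusted p = 0.0715), with the stricter cell filter (0.91, adjusted p = 0.0677, edgeR) or without the cells of highest UMI counts (0.79, adjusted p = 0.0861, edgeR). Without Notch2 cKO 1 the Ephb3 difference was 0.62.

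Plxna4 (chromosome 6, 32144268 to 32588192, minus strand), a receptor for class 3 and class 6 semaphorins, was at 13.1, 44.9, 35.1 and 78.7 CPM. It rose in each batch, and the lower Notch2 cKO value lay above the higher control value (1.39, SE 0.23, adjusted p = 0.00499, edgeR). Plxdc2 (chromosome 2, 16356304 to 16755839, plus strand) was at 81.9, 257, 244 and 625 CPM. Its batches differed about as much as its genotypes, and the 257 CPM of Notch2 cKO 1 stood just above the 244 of control 2 (1.44, SE 0.25, adjusted p = 0.00691). Without control 1 and without Notch2 cKO 2 the differences were 0.76 and 0.89 for Plxna4, and 0.79 and 0.66 for Plxdc2. Without control 2 they were 2.07 and 2.25.

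Slit3 (chromosome 11, 35121224 to 35708507, plus strand) was at 14.3, 7.47, 74.0 and 34.1 CPM. It was lower in Notch2 cKO within each batch, while control 1 lay below Notch2 cKO 2 (-1.10, SE 0.20, adjusted p = 0.0102, edgeR). Leaving out control 1, Notch2 cKO 1, control 2 or Notch2 cKO 2 gave -1.90, -0.50, 0.36 or -2.56 for Slit3. With the T-zone gate on Ccl21a alone the difference was -0.84 and the adjusted p 0.0564. Ntn4 (chromosome 10, 93640681 to 93747207, plus strand) was at 2.77, 0.961, 5.17 and 1.57 CPM, and both Notch2 cKO values lay below both controls (-1.73, SE 0.35, adjusted p = 0.0176). Under DESeq2 the Ntn4 difference was -1.72 (adjusted p = 0.147), and with the stricter cell filter -1.70 (adjusted p = 0.051, edgeR). Both genes were higher in adventitial-like and Cd34 cells than in T-zone cells. Sema3c, highest in adventitial-like cells, was at 1.90, 2.37, 3.52 and 7.06 CPM in the same T-zone sums, and the part of RNA from other cells in these levels was not tested.

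These 6 calls rest on the comparison within batches. Without the batch term, no gene of the table passed the edgeR test in T-zone cells, and 5 members had an unadjusted p under 0.05. Leaving out any 1 library, which forces a fit without that term, also left no member past the test, and without control 2 the Slit3 difference was 0.36. Ccl19, one of the 3 T-zone gate genes, was itself lower in Notch2 cKO (1341 and 2573 CPM against 5719 and 5975). Ccl21a was not (15035 and 18440 against 16828 and 15880), and gating on it alone kept 5 calls.

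**Figure D4:**
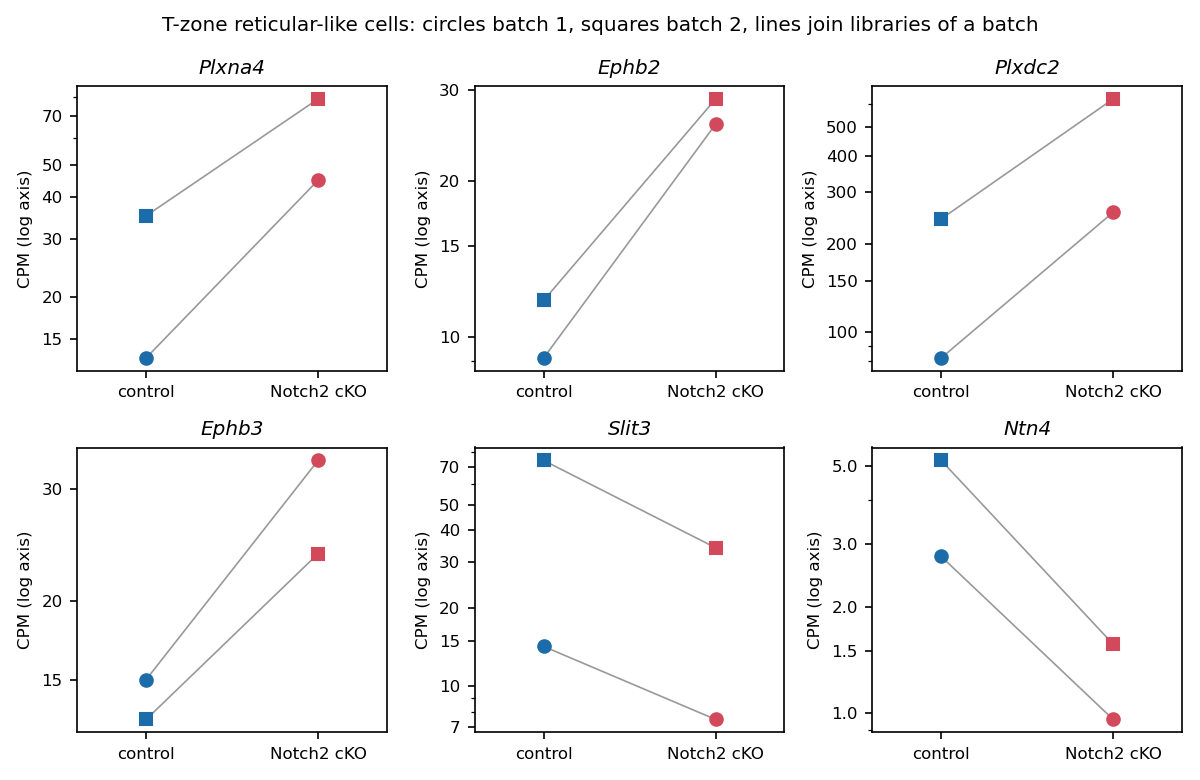
Levels in CPM on log axes of the 6 members that passed the test between genotypes in T-zone reticular-like cells, with 1 point a library and lines joining the libraries of a batch. Plxna4, Ephb2, Plxdc2 and Ephb3 go up in each batch, and Slit3 and Ntn4 go down.

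Markers of other lineages moved in the same sums. The 4 vascular smooth muscle markers summed to 109 and 136 CPM in control and 17.5 and 49.4 in Notch2 cKO libraries. Nearly all of this was Myh11, at 108 and 132 against 17.3 and 47.1 CPM, so the sums say little of the other markers. Myh11 fell (log2 difference -2.10, adjusted p = 0.000982, edgeR). The 4 pericyte markers summed to 1061 and 1071 against 733 and 830 CPM, with 1 marker at 0 in each batch 1 library. Most of this was Rgs5, at 775 and 693 against 453 and 468 CPM. The 4 leukocyte markers summed to 3.80 and 7.92 against 7.17 and 15.9 CPM, and the endothelial, epithelial and Schwann lists to at most 16.4 in any library. The 8 stress genes of tissue dissociation summed to 27912 CPM in Notch2 cKO 1 and 18211 to 19460 in the other 3. The part of these in the guidance results was not tested.

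Another 13 members had an unadjusted p under 0.05 in T-zone cells without passing after adjustment. The share of all genes under this unadjusted cut was not counted in any fit, so such counts have no background beside them. Robo1 was at 53.4, 94.2, 240 and 449 CPM (0.81, SE 0.22, adjusted p = 0.0737, edgeR). Nrp1 was at 566, 280, 529 and 345 CPM (-0.87, SE 0.25, adjusted p = 0.089). Nrp1 was lower in the Notch2 cKO library of each batch, and its groups did not overlap.

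To show what lies at their start sites, the start regions of the members called between genotypes were read for the core motif of RBPJ, the DNA-binding partner of Notch. The motif searched was TGGGAA and its reverse complement TTCCCA, in windows from 250 bases before to 50 bases after each RefSeq start (GRCm38.p6). Of 7 members called in any class, 5 matched a window by symbol (Ephb2, Ephb3, Ntn4, Robo1, Slit3) and 1 window, that of Ntn4, held a match. Of all 32851 windows 25.6% held at least 1 match, and of the 75 windows of members 22.7%. The windows of 2 genes that rose and 1 that fell are given on the gene's strand, with any match in capitals.
Ephb2 (chr4:136835963-136836262, minus strand): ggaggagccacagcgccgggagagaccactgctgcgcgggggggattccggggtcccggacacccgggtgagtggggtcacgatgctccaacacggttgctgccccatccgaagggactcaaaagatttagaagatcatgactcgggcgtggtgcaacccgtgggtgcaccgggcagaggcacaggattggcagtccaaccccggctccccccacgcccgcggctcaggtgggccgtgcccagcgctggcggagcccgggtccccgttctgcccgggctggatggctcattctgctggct
Ephb3 (chr16:21204545-21204844, plus strand): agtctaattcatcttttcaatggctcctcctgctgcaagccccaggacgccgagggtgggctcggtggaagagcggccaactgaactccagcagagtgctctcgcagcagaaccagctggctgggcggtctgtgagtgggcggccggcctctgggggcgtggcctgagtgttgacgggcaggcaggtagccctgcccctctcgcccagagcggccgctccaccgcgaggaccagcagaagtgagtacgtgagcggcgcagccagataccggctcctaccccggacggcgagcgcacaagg
Ntn4 (chr10:93640799-93641098, plus strand): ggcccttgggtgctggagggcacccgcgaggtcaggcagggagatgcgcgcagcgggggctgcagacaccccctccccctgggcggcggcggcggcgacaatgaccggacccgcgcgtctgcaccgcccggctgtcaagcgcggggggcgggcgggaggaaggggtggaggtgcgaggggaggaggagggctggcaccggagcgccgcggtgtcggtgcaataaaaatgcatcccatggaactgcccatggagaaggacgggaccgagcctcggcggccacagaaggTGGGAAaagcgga
The match in Ntn4 begins 37 bases after the RefSeq start of that window. The whole window lies inside the Ntn4 span given above, which begins at 93640681. The Robo1 window (from 72662899) likewise lies inside the span of its gene, which begins at 72308306. The 3 windows are rich in G and C, at 68.7%, 66.7% and 72.0%. A match in such a window is a run of letters and says nothing of binding.

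Summed over all fibroblast-like cells, 1 member rose and none fell, against 0.835% and 0.516% (1.35% in either direction) of 17843 genes. This was Plxna4, at 9.81, 32.3, 25.8 and 69.0 CPM. Both Notch2 cKO values exceeded both controls (log2 difference 1.51, SE 0.20, adjusted p = 0.0222, edgeR), and 13 members had an unadjusted p under 0.05. Adventitial-like cells were 0.952%, 3.25%, 1.19% and 0.629% of fibroblast-like cells, and Sema3c was at 11.6, 42.2, 24.7 and 14.6 CPM in this sum. The part of class shares in these levels was not tested. Within adventitial-like cells Sema3c differed by -0.13 (SE 0.36).

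In the other classes the calls were few. In marginal reticular-like cells 2 of 44 members rose (0.777% of all genes rose and 1.06% fell, 1.84% together): Ephb2, at 6.58, 10.2, 5.63 and 21.8 CPM, and Robo1, at 6.58, 71.3, 193 and 340. The log2 differences were 1.71 (SE 0.47, adjusted p = 0.0202, edgeR) and 1.13 (SE 0.32, adjusted p = 0.0265). With another random seed for the gate the edgeR adjusted p was 0.189 for Ephb2 and 0.239 for Robo1, so both calls were lost. Both control 1 values are 2 UMIs, under the 9.87 CPM that 3 UMIs correspond to there. Fits between genotypes without 1 library hold no batch term, so they also compare libraries of different batches. Without control 1, control 2 and Notch2 cKO 2 the Robo1 difference was 0.0087, 4.86 and -0.60. In the same sums leukocyte markers were at 9.87, 15.3, 9.73 and 36.5 CPM and vascular smooth muscle markers at 59.2, 22.9, 213 and 124 CPM, whose part in the result was not tested. In Cd34 fibroblast-like cells 1 of 44 rose (0.188% of all genes rose and 0.152% fell, 0.339% together): Plxna4, at 8.93, 47.2, 42.2 and 115 CPM (1.47, SE 0.33, adjusted p = 0.00587). It did not pass under DESeq2 (1.64, adjusted p = 1.00), with higher gate cuts (1.46, adjusted p = 0.90, edgeR) or without TMM scaling (1.57, adjusted p = 0.0765, edgeR). Without control 1, control 2 and Notch2 cKO 2 the difference was 0.91, 3.08 and 0.63. The control 1 level of Plxna4, 8.93 CPM, is under the 13.4 CPM that 3 UMIs correspond to in Cd34 cells of that library.

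In adventitial-like cells 0 of 24 tested members passed the edgeR test, and 1 had an unadjusted p under 0.05, where 0.237% of all genes passed. In medullary-type-like cells 0 of 43 passed and 6 had an unadjusted p under 0.05 (0.519% of all genes passed). In Fabp4 cells these were 0 of 18 and 2 (0.0398% of all genes rose and 0.0994% fell, 0.139% together). DESeq2 called 0 members over these 5 smaller classes together. Adventitial sums held 166949 to 1529821 UMIs a library, so differences of the size seen in T-zone cells need not be detectable there.

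Whether the genotype difference itself was unlike in T-zone and adventitial-like cells was tested directly. Of 54 members tested, Plxdc2 and Ntn1 had a difference that was higher in T-zone cells, and Ntn4 one that was lower. Among all 13891 genes 0.785% were higher and 0.511% lower, 1.3% together. Ntn4 went down in T-zone cells (-1.73) and was at 35.9, 112, 101 and 106 CPM in adventitial-like cells (0.47, SE 0.33). The difference between the classes was -2.19 (SE 0.40, adjusted p = 1.24e-05, edgeR). Control 1 was the low adventitial library, with 85 cells and 6 Ntn4 UMIs.

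Plxdc2 rose in T-zone cells and was at 593, 566, 856 and 852 CPM in adventitial-like cells (-0.09, SE 0.35), a difference between the classes of 1.43 (SE 0.33, adjusted p = 0.00239, edgeR). Ntn1 was at 1.03, 2.59, 1.13 and 1.65 CPM in T-zone and 144, 108, 152 and 72.1 in adventitial-like cells. It passed in neither class alone, with log2 differences of 0.79 and -0.83. The difference between the classes was 1.63 (SE 0.40, adjusted p = 0.0053, edgeR). The part of RNA from other cells in the low T-zone levels of Ntn1 was not tested. Under DESeq2 the adjusted p was 0.0415 for Ntn4, 0.234 for Plxdc2 and 0.167 for Ntn1. The edgeR call for Plxdc2 was lost without control 1 (1.09, adjusted p = 0.463) and without Notch2 cKO 2 (1.07, adjusted p = 0.311), and that for Ntn1 without control 2 (1.58, adjusted p = 0.798).

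**Figure D5:**
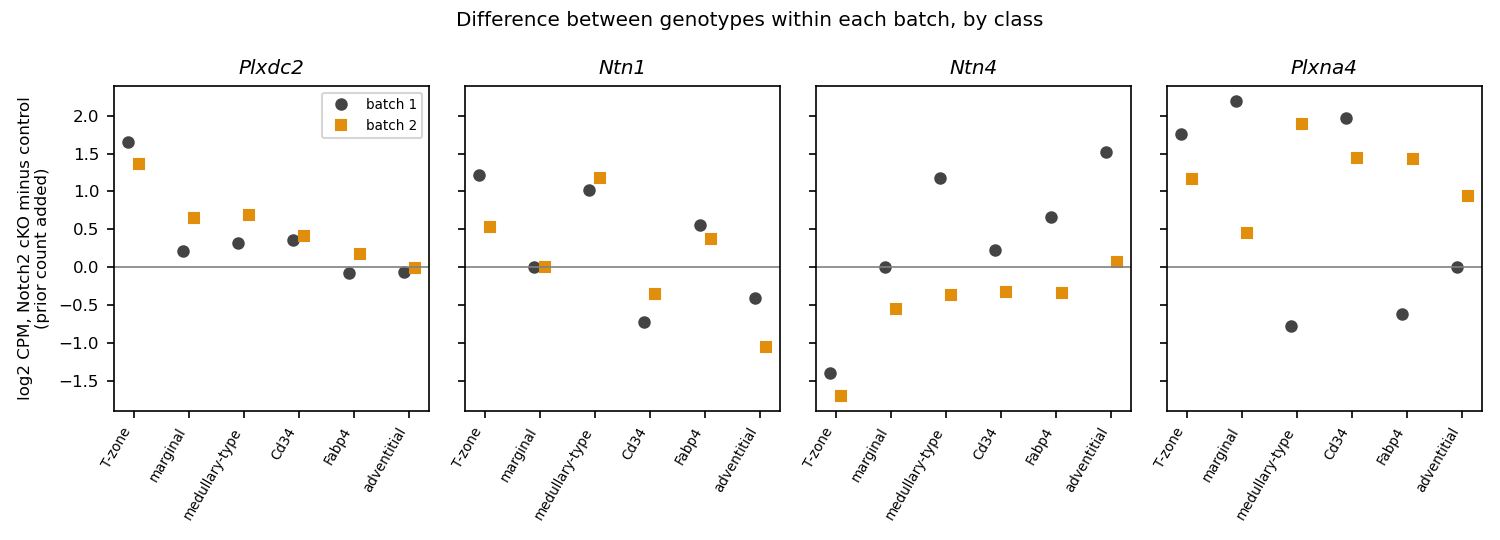
Log2 difference of CPM, Notch2 cKO minus control, within batch 1 (circles) and batch 2 (squares), for 4 genes in 6 fibroblast-like classes, with a prior count of 2. Ntn4 is at -1.39 and -1.70 in T-zone cells, and Plxdc2 at 1.65 and 1.36 there.

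Of the 50 co-receptors, other ligands and effectors, 4 rose and 3 fell among the 46 tested in T-zone cells, where 2.48% of all genes rose and 2.45% fell. Srgap1, an effector that Robo receptors recruit, was at 7.68, 18.1, 24.9 and 68.6 CPM (1.29, SE 0.20, adjusted p = 0.00339, edgeR). Srgap3, of the same group, was at 47.0, 22.0, 90.6 and 49.2 CPM and fell (-1.04, SE 0.19). Draxin (1.72), Flrt2 (1.49) and Chl1 (1.48) rose too. Ntng1, a membrane-anchored netrin relative, was at 61.8, 4.21, 97.9 and 19.6 CPM and fell (-3.06, SE 0.31, adjusted p = 0.00033), and its receptor Lrrc4c fell as well (-1.20). Ntng1 also fell in all fibroblast-like (-2.70), marginal (-1.18) and medullary-type-like cells (-1.77). Chl1 rose in all fibroblast-like (1.55), marginal (2.04) and Cd34 fibroblast-like cells (1.93).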

How the data were processed

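Single-cell 3′ RNA libraries of sorted lymph node stroma were analysed from 2 control and 2 Notch2 cKO pools. The deposited values are raw UMI counts per gene and cell, made by the authors with Cell Ranger 5.0.1 (batch 1) or 7.1.0 (batch 2) per the file headers, while the submitters' processing notes name 5.0.1 and mm10. A cell was kept from 500 genes and 1000 UMIs upward if mitochondrial UMIs made up no more than 10%, and it was thinned to 1000 UMIs for gating alone. No doublet caller was run. Cells with fibroblast markers beside leukocyte, endothelial, epithelial or Schwann markers were left out. Cells with pericyte or smooth muscle markers beside fibroblast markers were kept as fibroblast-like. A cell past the gates of several fibroblast-like classes went to the class whose cut it exceeded most, as a ratio. Unthinned counts of a class were added up within each library, and edgeR 4.0.16 was run on these sums (R 4.3.3, TMM, filterByExpr, quasi-likelihood, Benjamini-Hochberg over all genes tested, threshold 0.05), with batch as a term between genotypes (1 residual degree of freedom) and the library as a block between classes (15). CPM was computed from the summed counts. DESeq2 1.42.0 was an alternative, and the others varied scaling, filters, gates, seed, blocks and libraries. The scripts were tested on simulated data. Same-batch libraries deviated together from their group means (correlation 0.811 over 6527 genes in all fibroblast-like and 0.805 over 6380 in T-zone cells), and the labels give the number as the batch, so the pairing was kept. Named are members past the test, or with a mean of 20 CPM in a described class, with others as ranges; listed partners are named where past the test. Members and lists were chosen with earlier results of these data known, and gate cuts were set from marker values alone.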

Additional observations from a re-analysis of the deposited data

Results flagged for a closer look

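The genotype difference differed between T-zone reticular-like and adventitial-like cells for 3 members, by an edgeR test of the difference itself over all 13891 genes. The difference (T-zone minus adventitial) was 1.43 for Plxdc2, -2.19 for Ntn4 and 1.63 for Ntn1. Plxdc2 was also not past the edgeR test with the stricter cell filter (1.19, adjusted p = 0.215). Adventitial-like cells numbered 85, 250, 175 and 70 in control 1, Notch2 cKO 1, control 2 and Notch2 cKO 2.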

How the results depend on the processing

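Counts of members past the test depended on the processing, and the cause was not tested where none is named. In all fibroblast-like cells the 1 call became 4 under DESeq2, 6 without a filter on low counts, 2 with the stricter cell filter, 2 with gate cuts 1.5 times as high, 3 with the T-zone gate on Ccl21a alone and 3 with another seed. In T-zone cells 6 became 12 without the filter. In the other classes 3 became 0 under DESeq2, 0 with the higher gate cuts and 1 without the cells of highest UMI counts. The difference between T-zone and adventitial effects went from 3 to 1 under DESeq2, 5 with Ccl21a alone and 5 without the cells of highest UMI counts. With no replicate block, the pairing by batch removed, the counts were 0, 0 and 0 for all fibroblast-like, T-zone and other classes. Leaving out each library gave 0 to 0, 0 to 0 and 0 to 1 for these, 119 to 169 calls between classes (163 in the full data) and 2 to 4 for the difference of effects. Batch 1 alone, an alternative chosen after seeing the data, gave 75 calls between classes, and batch 2 alone 159. As above, the genotype fits without 1 library hold no batch term and also compare across batches. Signs turned without control 2 for Slit3 in T-zone cells by genotype (0.36; range without 1 library -2.56 to 0.36) and Slit2 in marginal cells by class (0.67; range -2.19 to 0.67), without Notch2 cKO 2 for Robo1 in marginal cells by genotype (-0.60; range -0.60 to 4.86), and with the stricter cell filter for Sema6a in Fabp4 cells (0.10). In batch 1 alone, with fewer libraries and cells, they turned for Efna5 (-1.28) and Epha4 (-0.0081) in marginal, Unc5c (0.14) and Ephb6 (0.51) in adventitial-like, Unc5c (1.07), Robo2 (0.46) and Plxnb1 (0.25) in Cd34 and Efna5 (0.17) in Fabp4 cells. Depth limits the rare classes: 3 UMIs correspond to 18.0 CPM in adventitial-like cells of control 1 and to at most 0.238 in T-zone cells.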
